A study of Chlorocebus sabaeus with 10 samples.

Results

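Genes of DNA replication and cell division were followed in liver biopsies of vervet monkeys (Chlorocebus sabaeus), an Old World primate. A set of 42 genes was chosen by symbol, and each was represented by its deposited transcript with the highest mean count. Of these, 41 had a row among the 28078 deposited transcripts, each with 1 transcript only. CDK1 had no row under its symbol and was not analysed here. GINS2 had 0 counts in all 10 animals, so 40 members were detected.

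The samples were single liver biopsies of female monkeys, 5 fed a high fructose diet (HFr) and 5 fed chow for 6 weeks, after all 10 had been kept on chow. Polyadenylated RNA was sequenced, and the authors deposited estimated counts per transcript without normalization. Levels are given as counts, or as CPM, the count per 1000000 counts of a library size that was scaled with TMM, the trimmed mean of M values. Levels are compared between animals and never between genes, since no transcript lengths were used. Total counts lay between 2977282 and 4992505 per animal, and 34.75% to 73.59% of them fell on mitochondrial transcripts. This left 864571 to 2657103 nuclear counts, of which the 41 genes together took 490 to 1830 counts, or 0.0481% to 0.102%.

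A dividing cell copies its genome once in S phase and separates the copies in mitosis. Before S phase the MCM helicase is loaded at replication origins, D-type and E-type cyclins with their kinases inactivate RB1, and E2F factors are released to switch on the genes for DNA synthesis. Later, cyclins A and B and the factor FOXM1 drive the genes of the spindle and of chromosome segregation. Most hepatocytes of an adult liver are out of the cell cycle, and transcripts of mitosis are scarce in liver RNA. In a bulk biopsy, more dividing cells and more RNA per dividing cell cannot be told apart.

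The low level of these genes sets what can be tested. Of the 40 detected members, 27 had a count in all 10 animals and 35 reached 10 counts over the 10 animals together. Only 15 passed the filter on low counts (filterByExpr in edgeR, minimum count 10 scaled to the library size). For 9 of the 15, all animals of both diets reached that level. For 5 of the 15, more HFr than chow animals did, and RRM2 reached it in 4 HFr animals and 1 chow animal, so the members that passed are not a neutral sample of the set. The members were therefore also tested in a fit over all 16066 transcripts with a rounded count, referred to as the fit without the filter. Log2 fold changes of HFr against chow are from the filtered fit for the 15 members that passed and from the fit without the filter for the others, and all values without HFr 2 are from the latter, unless another fit is named.

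After Benjamini-Hochberg adjustment over all transcripts, edgeR's quasi-likelihood test called 0 members in either fit, and it called 0 transcripts in all. DESeq2 called 1 member in the filtered fit (RRM2) and 2 without the filter (RRM2 and FOXM1). Before adjustment, 4.71% of all transcripts had p under 0.05 in the fit without the filter. Of the 40 members, 13 (32.5%) did, and all 13 were higher on the HFr diet. The share of all 16066 transcripts that were higher at this threshold was 2.24%. Among transcripts with at least 10 counts in total it was 2.31%, and 13 of the 35 members with that depth were among them. The 13 were FOXM1, RRM2, KIFC1, BUB1, MKI67, CCND1, TYMS, TOP2A, MCM5, NUF2, TACC3, CDKN2C and E2F1. A two-sided exact permutation test on the CPM gave p = 0.222 for E2F1, 0.103 for TOP2A, 0.0794 for CCND1 and 0.0635 for MCM5. For the rest of the 13 it gave p under 0.05. No member was lower at an unadjusted p under 0.05, where 2.46% of all transcripts were. RB1 was lower at that threshold under some alternatives, given with its values. The log2 fold change was positive for 33 of the 40 members (82.5%), against 48.4% of all transcripts. The median log2 fold change of the members was 0.70, and that of all transcripts was -0.01.

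In the filtered fit, 3 of the 15 members that passed (RRM2, CCND1 and NCAPD3) had an unadjusted p under 0.05 and all 3 were higher, against 2.06% of the 7948 transcripts tested there. In that fit 4.29% of transcripts were under this threshold in either direction and 2.23% were lower, and 49.8% had a positive log2 fold change. The 3 higher members were 1 without HFr 2 and 2 without HFr 3. They were 6 without HFr 1, chow 1 or chow 2. With any 1 animal left out the filter asked for the level in 4 animals, and 8065 to 8305 transcripts passed. That held where the count fell as well as where it rose.

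HFr animal 2 stood apart for these genes. It had the highest CPM of the 10 animals for 20 of the 40 members (50%), while it was the highest for 10.7% of all transcripts. Its mitochondrial share was 41.82%, its total was 3097685 counts, and its TMM factor of 1.449 was the second highest after that of chow 2. Without HFr 2, 7 of the 40 members had an unadjusted p under 0.05 (MCM5, RRM2, TYMS, CCND1, FOXM1, KIFC1 and BUB1). All 7 were higher on the HFr diet, against 1.86% of all transcripts in the same fit. The log2 fold change was then positive for 30 of the 40 members, and their median was 0.46. With any other animal left out, 11 to 15 members were higher at this threshold.

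**Figure D1:**
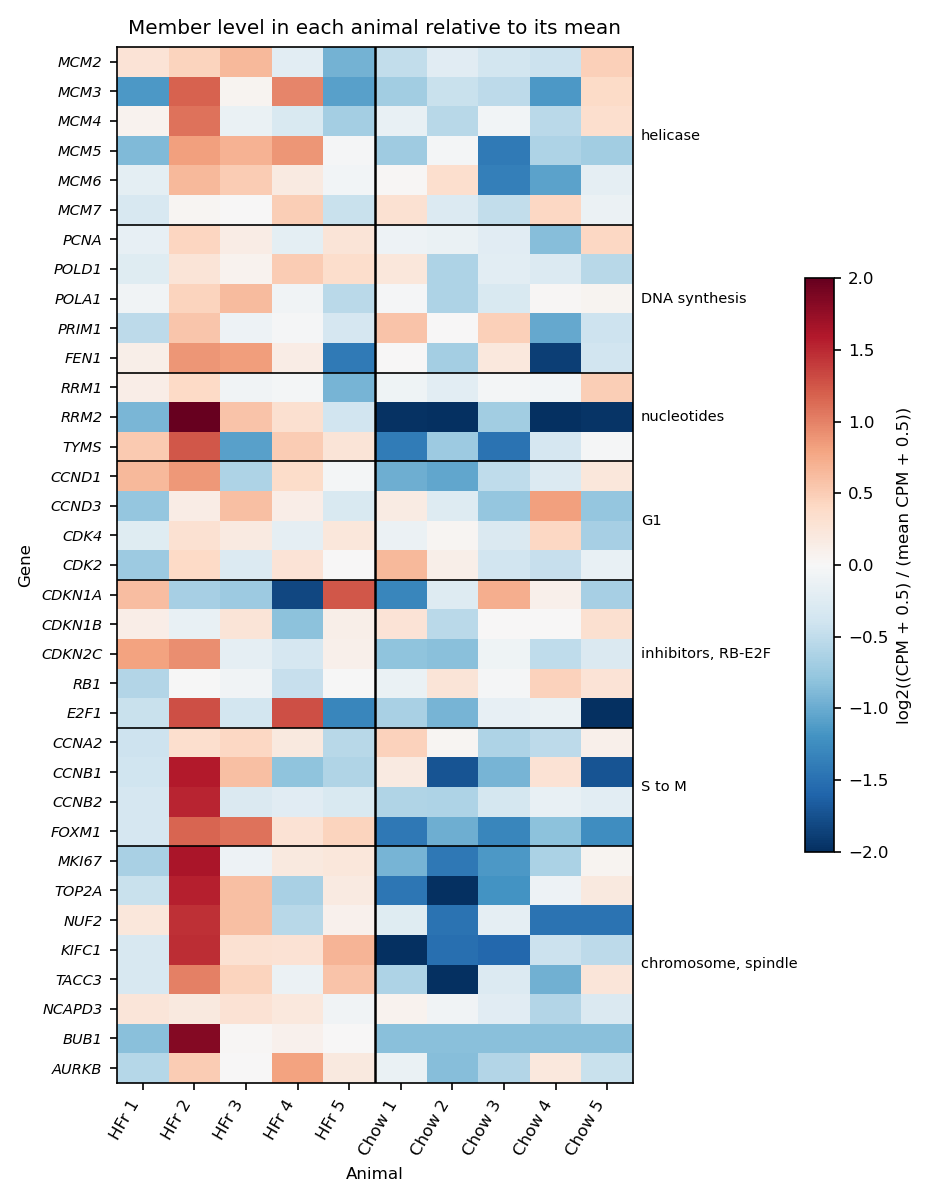
Each row is 1 of the 35 members with at least 10 counts in total, grouped by role, and each column is 1 animal, with the 5 HFr animals on the left. Color gives log2 of the CPM in that animal over the mean CPM of the 10 animals, with 0.5 added to both. The column of HFr 2 is red for most rows, and the rows of FOXM1, RRM2 and KIFC1 are blue in all chow animals.

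FOXM1, the transcription factor that drives genes of the G2 phase and mitosis, had the smallest p of the members in the fit without the filter. It lies on chromosome 11 of ChlSab1.1 from 2920663 to 2940824 on the minus strand. Its counts were 8, 42, 22, 22 and 28 in HFr animals 1 to 5, and 5, 8, 7, 4 and 3 in chow animals 1 to 5. The diet sums were 122 and 27 counts. All 5 HFr animals lay above all 5 chow animals in CPM, and HFr 2 and HFr 3 were the highest, at 9.36 and 8.82. The means were 6.31 ± 2.71 CPM (SD, n = 5) on the HFr diet and 1.51 ± 0.359 CPM (SD, n = 5) on chow. On the log2 scale the diet difference was 2.08 (standard error (SE) 0.39, unadjusted p = 2.35e-05, adjusted p = 0.124, edgeR), and the adjusted p ranged from 0.00724 to 0.925 over the alternatives. The two-sided exact permutation test gave p = 0.00794, the smallest it can give for 5 against 5 animals. Without HFr 2 the log2 fold change was 1.89 (SE 0.42).

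Only for FOXM1 and KIFC1, 2 of the 40 members (5%), did every HFr animal exceed every chow animal, as for 0.224% of all transcripts. No member had all HFr animals below all chow animals, where only 0.261% of all transcripts did.

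The other detected members of the S to M set were the cyclins. CCNB1 and CCNB2 encode the B cyclins that activate the mitotic kinase. CCNB1 had 2, 20, 5, 2 and 3 counts in the HFr animals and 6, 0, 2, 3 and 0 in the chow animals. HFr 2 was the highest, at 4.46 CPM, and the diets overlapped. The log2 fold change was 1.40 (SE 0.79) and 0.49 (SE 0.85) without HFr 2. CCNB2 had 12 counts in HFr 2 and 1 or 2 in each of the other 9 animals, so that its log2 fold change of 1.37 was 0.28 without HFr 2. CCNA2, the cyclin of S phase and G2, had diet sums of 33 and 30 counts (log2 fold change 0.10, SE 0.48).

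The chromosome and spindle genes held 6 of the 13 members that were higher at an unadjusted p under 0.05. The log2 fold change was positive for all 9, against 48.4% of all transcripts in the fit without the filter. AURKA, with 2 counts on the HFr diet and 1 on chow, is among the 9, and its value was -1.43 without HFr 2. KIFC1 encodes a minus-end-directed kinesin of the spindle and lies on chromosome 17 from 38656246 to 38674471. It had 3, 23, 5, 9 and 14 counts in HFr animals 1 to 5 and 0, 1, 1, 2 and 2 in chow animals 1 to 5. The lowest HFr animal had 1.12 CPM and the highest chow animal 1.004 CPM, so the groups were adjacent without overlapping (exact permutation p = 0.00794). The diet sums of 54 and 6 counts gave a ratio of 8.72 after library scaling, with an exact 95% interval from 3.76 to 24.8 that covers counting error only. The diet difference was 2.84 (SE 0.68) and 2.43 (SE 0.72) without HFr 2. Its adjusted p was 0.409 from edgeR, within a range from 0.0430 to 0.930 over the alternatives.

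MKI67 encodes the Ki-67 protein, the usual marker of cycling cells, which coats mitotic chromosomes. Its counts were 4, 41, 6, 14 and 16 on the HFr diet and 5, 3, 5, 3 and 6 on chow, with sums of 81 and 22. HFr 2 was far above the others at 9.14 CPM, while HFr 1 and HFr 3, at 1.497 and 2.40 CPM, lay within the chow range of 0.653 to 2.74 CPM. Its log2 fold change was 1.64 (SE 0.52, unadjusted p = 0.00448, edgeR), and it was 1.03 (SE 0.52, unadjusted p = 0.0579) without HFr 2.

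TOP2A, the topoisomerase that untangles sister chromatids, had 5, 40, 11, 7 and 16 counts on the HFr diet and 3, 0, 5, 5 and 7 on chow. HFr 2 was again the highest, at 8.91 CPM, and HFr 1, HFr 4 and HFr 5 lay below the highest chow animal. The log2 fold change was 1.71 (SE 0.63), and without HFr 2 it was 1.13 (SE 0.65, unadjusted p = 0.0960, edgeR).

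NUF2 encodes a subunit of the NDC80 complex that ties kinetochores to microtubules. It had 3, 15, 4, 2 and 5 counts in the HFr animals, 3 and 4 in chow animals 1 and 3, and 0 in the other chow animals. The diet difference was 1.98 (SE 0.77), and without HFr 2 it was 1.41 (SE 0.84, unadjusted p = 0.105, edgeR). TACC3, a spindle protein that stabilizes kinetochore fibers, had 7, 33, 12, 14 and 27 counts on the HFr diet and 9, 2, 15, 3 and 9 on chow. The groups overlapped, with chow 5 at 4.11 CPM and chow 3 at 2.73 CPM above HFr 1 at 2.62 CPM. Its log2 fold change was 1.16 (SE 0.45), and without HFr 2 it was 0.93 (SE 0.48, unadjusted p = 0.0673, edgeR).

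BUB1, a kinase of the spindle assembly checkpoint, was at 0 in all 5 chow animals and had 0, 12, 1, 2 and 2 counts in HFr animals 1 to 5. Against an assumed floor of 3 counts for the chow group, its level on the HFr diet came to 5.49-fold. The exact 95% interval for counting error starts lower, at 3.998-fold. Of its 17 counts, 12 came from HFr 2, and without that animal the ratio against the same floor was 2.10-fold, from 5 counts. AURKB, the kinase that corrects kinetochore attachments, had sums of 22 and 9 counts and a log2 fold change of 1.096 (SE 0.64). AURKA, the centrosome kinase, had 2 counts on the HFr diet and 1 on chow, too few for a comparison.

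NCAPD3, a subunit of condensin II that compacts chromosomes, was the best covered of this role and lies on chromosome 1 from 125210486 to 125284921. Its counts were 113, 185, 109, 189 and 174 on the HFr diet and 165, 156, 168, 47 and 64 on chow. In CPM the HFr animals lay at 34.2 to 43.7 and the chow animals at 23.6 to 37.4, with HFr 5 alone below the highest chow animal. The means were 40.6 ± 3.71 CPM (SD, n = 5) and 31.0 ± 5.21 CPM (SD, n = 5). In the filtered fit the log2 fold change was 0.38 (SE 0.16, unadjusted p = 0.0337, adjusted p = 0.9996, edgeR), and in the fit without the filter the unadjusted p was 0.0526. In the filtered fit the threshold was also lost without any one of HFr 1 to 4 or chow 3 to 5. Its level in HFr 2, 41.2 CPM, was within the range of the other HFr animals.

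**Figure D2:**
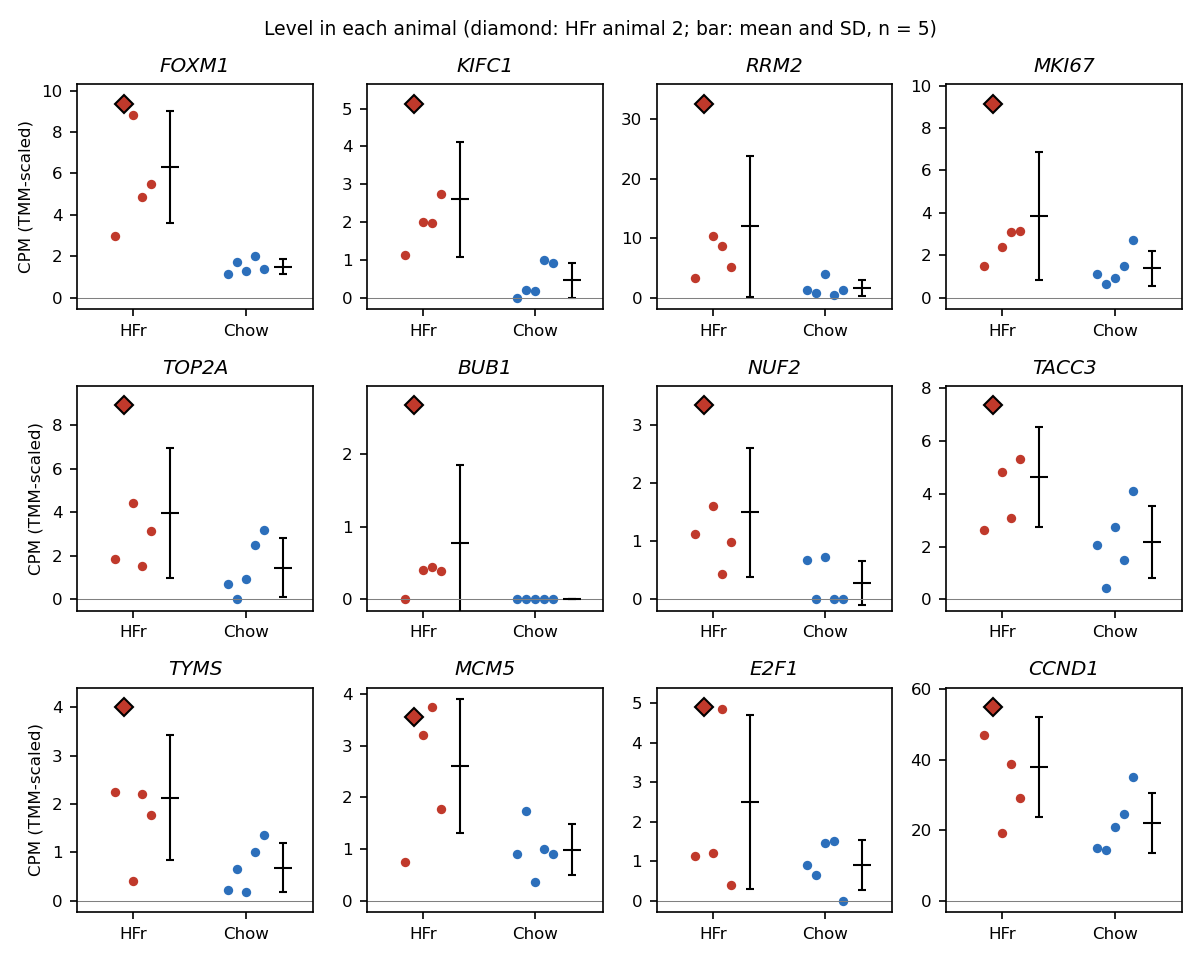
CPM of 12 members in each animal, with HFr animals in red and chow animals in blue. The diamond is HFr 2, and the black bar beside each group is the mean with its SD (n = 5). FOXM1 and KIFC1 do not overlap between the diets, and HFr 2 is the highest animal in every panel except MCM5, where HFr 4 is higher (3.75 against 3.57 CPM).

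Of the deoxynucleotide supply genes, RRM2 and TYMS had an unadjusted p under 0.05, and differences between the genes were not tested. RRM2, the regulatory subunit of ribonucleotide reductase that is made in S phase, lies on chromosome 14 from 97512832 to 97521933. Its counts were 9, 146, 26, 39 and 26 in HFr animals 1 to 5 and 6, 4, 22, 1 and 3 in chow animals 1 to 5, with sums of 246 and 36. HFr 2 had 32.5 CPM and the other HFr animals 3.37 to 10.4 CPM, and chow 3 at 4.01 CPM was above HFr 1. The means were 12.0 ± 11.8 CPM (SD, n = 5) and 1.62 ± 1.38 CPM (SD, n = 5). In the filtered fit the log2 fold change was 2.73 (SE 0.63, unadjusted p = 0.000706, adjusted p = 0.994, edgeR), and the adjusted p ranged from 0.0291 to 1 over the alternatives. In the fit without the filter the adjusted p was 0.124. Without HFr 2 the log2 fold change in that fit was 1.92 (SE 0.47).

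RRM1, the catalytic subunit of the same enzyme, had sums of 199 and 201 counts. Its counts were 32, 65, 26, 48 and 28 on the HFr diet and 45, 43, 58, 21 and 34 on chow. The diets overlapped almost fully, at 5.50 to 14.5 CPM and 9.35 to 15.5 CPM, and the log2 fold change was -0.08 (SE 0.26).

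TYMS, which makes thymidylate, had 6, 18, 1, 10 and 9 counts on the HFr diet and 1, 3, 1, 2 and 3 on chow. HFr 3 at 0.401 CPM lay within the chow range, and the other 4 HFr animals lay above all chow animals. Its log2 fold change was 1.88 (SE 0.63, unadjusted p = 0.00671, edgeR), and it was 1.52 (SE 0.68) without HFr 2. TK1, the thymidine kinase of the salvage route, had 2 counts in HFr 2, 1 in HFr 5 and 0 in every other animal, which is at the floor of 3 counts and allows no fold.

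All 6 detected helicase genes had positive log2 fold changes, as 48.4% of all transcripts did in the fit without the filter. MCM5 alone had an unadjusted p under 0.05. MCM5 had 2, 16, 8, 17 and 9 counts in HFr animals 1 to 5 and 4, 8, 2, 2 and 2 in chow animals 1 to 5. HFr 2, 3, 4 and 5 lay above all chow animals, at 1.77 to 3.75 CPM against 0.364 to 1.74 CPM, and HFr 1 lay within the chow range. The log2 fold change was 1.41 (SE 0.53, unadjusted p = 0.0138, edgeR) and 1.27 (SE 0.58) without HFr 2. MCM3 had sums of 187 and 97 counts, with 77 of them in HFr 2 and 67 in HFr 4, and a log2 fold change of 0.80 (SE 0.47) in the filtered fit.

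MCM7, on chromosome 28 from 12977013 to 12985899, had the highest counts of the helicase subunits. They were 22, 48, 26, 67 and 38 on the HFr diet and 57, 39, 40, 28 and 21 on chow. The levels ranged from 7.47 to 14.8 CPM and from 7.29 to 14.1 CPM, and the log2 fold change was 0.01 (SE 0.25). MCM2, MCM4 and MCM6 had log2 fold changes of 0.46, 0.33 and 0.64 in the fit without the filter, with p above 0.05 for each. For MCM4 the value was -0.10 without HFr 2. These 6 subunits work as 1 hexamer, and their diet differences ranged from 0.01 for MCM7 to 1.41 for MCM5 in that fit. The differences between subunits were not tested.

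None of the 5 DNA synthesis genes had an unadjusted p under 0.05. PCNA, the sliding clamp that holds polymerases on DNA, had 29, 75, 34, 48 and 75 counts on the HFr diet and 50, 51, 57, 13 and 36 on chow. HFr 2 at 16.7 CPM and chow 5 at 16.4 CPM were nearly equal, and the log2 fold change was 0.26 (SE 0.23). POLD1, the catalytic subunit of polymerase delta, was above the chow mean in all 5 HFr animals, with sums of 117 and 78 counts (log2 fold change 0.52, SE 0.27, exact permutation p = 0.0476). Its unadjusted p from edgeR was 0.0750. POLA1, the catalytic subunit of polymerase alpha, had a log2 fold change of 0.34 (SE 0.31). PRIM1, the primase subunit, had one of -0.14 (SE 0.33). FEN1, the nuclease that trims Okazaki fragments, had sums of 32 and 20 counts (log2 fold change 0.75, SE 0.63).

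Of the G1 cyclins and kinases, CCND1 alone had an unadjusted p under 0.05. CCND1 encodes cyclin D1, which activates CDK4 in response to growth signals, and lies on chromosome 1 from 4907353 to 4922358. Its counts were 126, 247, 48, 176 and 148 in HFr animals 1 to 5 and 66, 66, 115, 49 and 77 in chow animals 1 to 5, with sums of 745 and 373. HFr 3 at 19.2 CPM was within the chow range, and chow 5 at 35.1 CPM was above HFr 3 and HFr 5. The means were 37.9 ± 14.2 CPM (SD, n = 5) and 22.0 ± 8.49 CPM (SD, n = 5). The diet difference was 0.81 (SE 0.30, unadjusted p = 0.0161, edgeR) in the filtered fit, and the exact permutation test gave p = 0.0794. Without HFr 2 its log2 fold change was 0.65 (SE 0.28, unadjusted p = 0.0271) in the fit without the filter, and 0.64 in the filtered fit (unadjusted p = 0.0527).

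CDK4, its partner kinase, had levels from 14.2 to 20.9 CPM on the HFr diet and from 10.5 to 22.6 CPM on chow (log2 fold change 0.17, SE 0.21). CDK2, the kinase that cyclin E activates, had 32 and 31 counts and a log2 fold change of -0.02 (SE 0.48). The remaining cyclins of this role were near the limit of detection, with sums on the HFr diet and chow of 4 and 2 counts for CCND2, 7 and 5 for CCND3, 4 and 5 for CCNE1, and 3 and 3 for CCNE2. A diet difference in them was not detectable at this depth.

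Of the inhibitors and the RB-E2F switch, CDKN2C and E2F1 were higher at an unadjusted p under 0.05 and the other 3 did not reach that threshold. CDKN1B, which encodes the inhibitor p27, was the best covered, with 142, 196, 144, 123 and 266 counts on the HFr diet and 258, 153, 267, 97 and 132 on chow. Its levels ranged from 27.1 to 57.7 CPM and from 33.3 to 60.2 CPM, and the log2 fold change was -0.09 (SE 0.22). CDKN1A, which encodes the inhibitor p21, varied more between animals of the same diet than between the diets, from 6.62 CPM in HFr 4 to 59.0 CPM in HFr 5 and from 9.76 to 41.2 CPM on chow. Its log2 fold change was 0.23 (SE 0.50).

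CDKN2C, an inhibitor of CDK4, had 12, 22, 5, 8 and 13 counts on the HFr diet and 5, 5, 12, 3 and 4 on chow. HFr 1 and HFr 2 were the highest, at 4.49 and 4.90 CPM, and HFr 3 and HFr 4 lay within the chow range. Its log2 fold change was 1.003 (SE 0.44, unadjusted p = 0.0338, edgeR), and it was 0.78 (SE 0.49, unadjusted p = 0.125) without HFr 2. It also lost this threshold without HFr 1, chow 1 or chow 2, with library size only (unadjusted p = 0.0759), with limma at a pseudocount of 0.1 (unadjusted p = 0.0583) and with the replicate block (unadjusted p = 0.0506).

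E2F1, a factor that switches on replication genes, had 3, 22, 3, 22 and 2 counts on the HFr diet and 4, 3, 8, 3 and 0 on chow. HFr 2 and HFr 4 were high, at 4.90 and 4.86 CPM, and the other 3 HFr animals lay within the chow range of 0 to 1.51 CPM. The log2 fold change was 1.44 (SE 0.65, unadjusted p = 0.0371, edgeR), and this threshold was lost without HFr 2, HFr 4, chow 1, chow 2 or chow 5. It was also lost with DESeq2 (unadjusted p = 0.0536) and with limma at pseudocounts of 1 and 0.1 (unadjusted p = 0.110 and 0.132). RB1, which holds E2F factors inactive, had sums of 357 and 430 counts and was below the chow mean in all 5 HFr animals. Its levels were 18.2 ± 3.42 CPM (SD, n = 5) and 24.04 ± 3.98 CPM (SD, n = 5), with a log2 fold change of -0.38 (SE 0.18, unadjusted p = 0.0554, edgeR). In the filtered fit its unadjusted p was 0.0335 to 0.0478 without HFr 2, HFr 5, chow 1 or chow 3 and 0.0493 with limma at a pseudocount of 0.1.

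**Figure D3:**
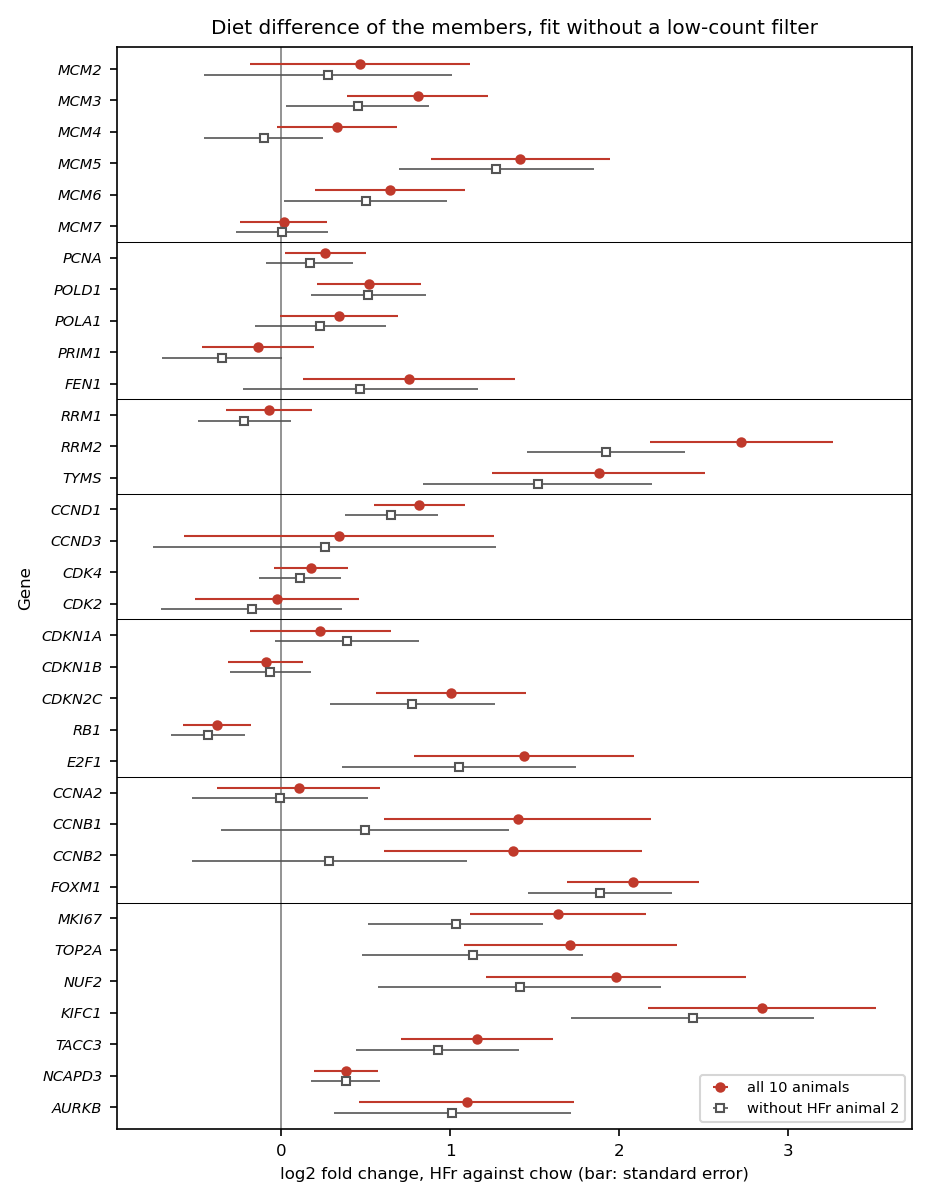
Log2 fold change of HFr against chow with its SE for 34 members in the fit without the filter, ordered by role. Red circles use all 10 animals and open squares leave out HFr 2. Members with under 10 counts, and BUB1 with 0 counts on chow, are not drawn. Most squares lie to the left of their circles, and the values of FOXM1, RRM2 and KIFC1 stay above 1.8 without HFr 2.

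Summed by role, the diets did not overlap for the chromosome and spindle genes and for the S to M genes. The summed level of the 9 chromosome and spindle genes was 50.9 to 79.5 CPM in the HFr animals and 31.6 to 42.7 CPM in the chow animals. HFr 2 was the highest of them, and without it the highest HFr value was 60.1 CPM. Leaving out the highest HFr animal could not make the groups overlap, so this says nothing further about the separation. NCAPD3 contributes most of this sum, and the 8 genes without it summed to 8.61 to 38.3 CPM and 1.52 to 11.4 CPM, where the groups overlapped. The 4 measured S to M genes summed to 5.24 to 18.7 CPM on the HFr diet and 2.92 to 5.22 CPM on chow, where HFr 1 at 5.24 CPM and chow 1 at 5.22 CPM were nearly equal. FOXM1, which separated the diets alone, held 122 of the 205 HFr counts and 27 of the 74 chow counts of this role. The diets overlapped for each of its cyclins, CCNA2, CCNB1 and CCNB2. The diets overlapped for the helicase, DNA synthesis, deoxynucleotide, G1 and inhibitor sums. HFr 2 was the highest animal of the 10 for each of these except the inhibitors and the RB-E2F switch. Over all 41 genes the sum was 265 to 408 CPM on the HFr diet and 212 to 272 CPM on chow, so the groups overlapped.

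**Figure D4:**
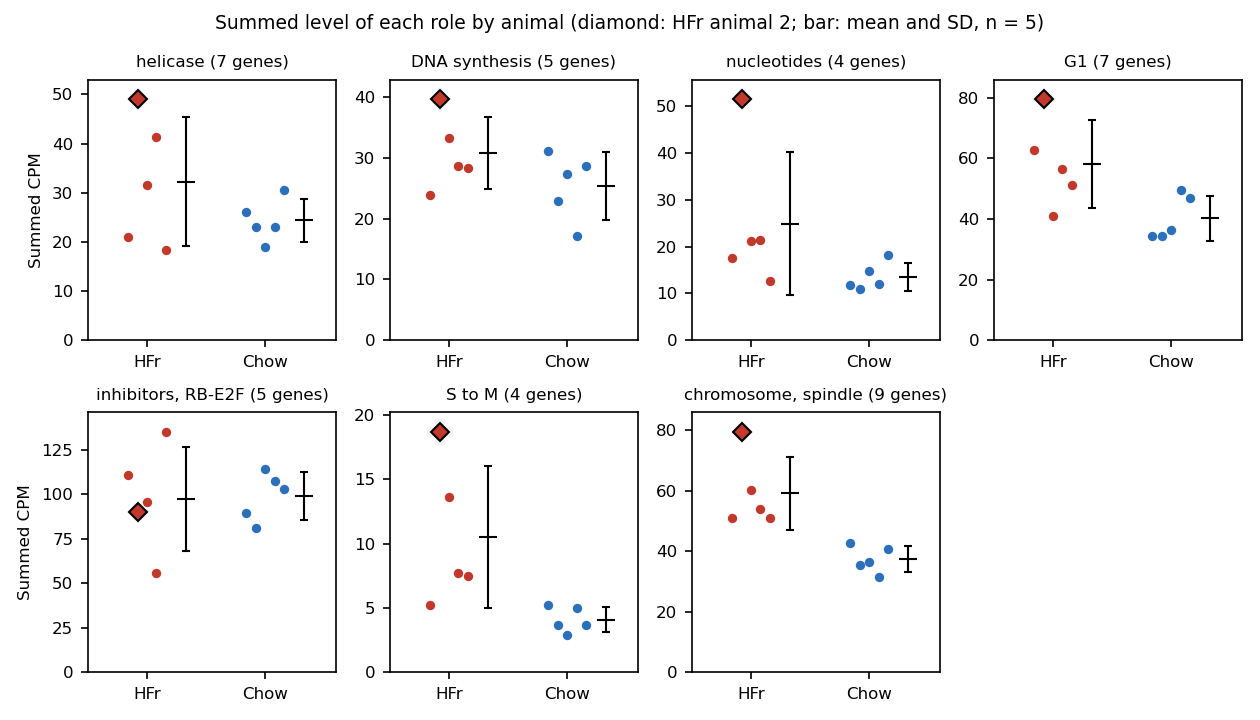
Summed CPM of the measured members of each role in each animal, with HFr in red and chow in blue. The diamond is HFr 2, and the bar is the mean with its SD (n = 5). The S to M panel, which includes FOXM1, and the chromosome and spindle panel, which includes NCAPD3, show no overlap. The inhibitor panel shows full overlap.

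A second list of 130 cell cycle genes that are not members was described in the same way, and 118 of them had a row. Of the 115 with a rounded count, 12 (10.4%) were higher and 3 (2.61%) lower at an unadjusted p under 0.05 in the fit without the filter, against 2.24% and 2.46% of all transcripts. Their median log2 fold change was 0.30, and HFr 2 was the highest animal for 50 of the 115 (43.5%), against 10.7% of all transcripts. Without HFr 2, 3 were higher, where 1.86% of all transcripts were, and 1 was lower. The filtered fit covered 43 of them and gave 5 at that threshold, with 0 left after adjustment.

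The 5 were GINS3, POLD2, CDC20, MCM10 and CDK19, of which CDK19 was counted in the list although it acts in transcription. GINS3, a subunit of the complex that completes the replicative helicase, had sums of 363 and 246 counts and a log2 fold change of 0.51 (SE 0.23). POLD2, an accessory subunit of polymerase delta, had sums of 149 and 85 counts and one of 0.71 (SE 0.32). CDC20, which activates the ligase that ends metaphase, had 125 and 76 counts and one of 0.77 (SE 0.35). In the other direction, MCM10, a factor of replication initiation, had 113 and 218 counts and a log2 fold change of -1.14 (SE 0.51). CDK19, a kinase of the Mediator complex that regulates transcription, had 325 and 414 counts and one of -0.42 (SE 0.17), with all HFr animals below all chow animals (exact permutation p = 0.00794), as for 0.327% of the transcripts tested. ORC2, of the complex that marks origins, had 499 and 624 counts (-0.32, SE 0.15), and MCM9, a repair helicase related to the MCM subunits, had 52 and 82 counts (-0.70, SE 0.36). Neither had an unadjusted p under 0.05.

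ANLN, a scaffold of the cleavage furrow, was singled out after its values were seen. It had 2, 22, 5, 4 and 3 counts on the HFr diet and 1, 0, 2, 1 and 0 on chow. The lowest HFr animal had 0.590 CPM and the highest chow animal 0.502 CPM. For no other gene of the second list did every HFr animal exceed every chow animal. That is 1 of 115 (0.87%), against 0.224% of all transcripts. Its adjusted p was 0.709 from edgeR in the fit without the filter.

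Markers of the cell types that a liver biopsy can hold were summed beside these results. Hepatocyte markers were present in every animal, 8 of 8 with counts, at 41270 to 64640 CPM on the HFr diet and 34510 to 71860 CPM on chow. The lymphocyte markers, 8 of 8 with counts, summed to 13.7 to 24.4 CPM and 13.8 to 18.7 CPM, with HFr 2 at 16.9 CPM. The macrophage markers, 7 of 8 with counts and C1QA not analysed here, summed to 39.4 to 168 CPM and 40.2 to 170 CPM. HFr 2 had the lowest macrophage sum of all animals, 39.4 CPM. The 5 measured erythroid markers lay at 100 to 333 CPM and 60.7 to 344 CPM, and HFr 2 was the lowest HFr animal at 100.3 CPM. The cholangiocyte markers, 5 of 6 with counts and CFTR not analysed here, lay at 5.96 to 27.6 CPM and 10.04 to 32.5 CPM, with HFr 2 the highest HFr animal. Stellate and fibroblast markers (6 of 6) lay at 216 to 397 CPM and 174 to 811 CPM. Endothelial markers (6 of 6) lay at 176 to 207 CPM and 133 to 197 CPM, with 1 of the 6 higher at an unadjusted p under 0.05. The part of these cell types in the level of the replication and division genes was not tested.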

How the data were processed

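RNA-Seq libraries (stranded, polyadenylated RNA) were made from liver biopsies of 10 monkeys. Per the labels and methods, the authors used CASAVA 1.8, FastQC and STAR 2.5.3a with ChlSab1.1, and estimated the reads of each Ensembl transcript by expectation-maximization in Partek Flow. The deposited estimated counts are not normalized, and 97.69% of the values were whole numbers. The deposited normalized signal values are the same counts scaled with TMM, and their ratio to the counts was constant per sample to within 0.00156%. They served only for the equal-variance alternative.

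Counts were rounded and tested in R 4.3.3 with edgeR 4.0.16 (TMM, quasi-likelihood test, diet as the only term), with filterByExpr (minimum count 10, minimum total 15) and again for every transcript with a count. The SE of a fold change was taken from its F statistic. Benjamini-Hochberg adjustment covered all transcripts of a fit, with a threshold of 0.05. Differences in a single level were tested by two-sided exact permutation over 252 assignments. Ratios of diet sums have exact 95% intervals for counting error only, since reads carried no molecular identifiers. The procedure was tested on simulated data.

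Members were named in full where their unadjusted p was under 0.05 in either fit, where the diets did not overlap, or where they had the highest mean count of their role. Of the second list, genes with an unadjusted p under 0.05 in the filtered fit were named, with MCM9, ORC2, CDK19 and CDC20. The members, lists, roles and tests were chosen with earlier results of these data known. Animals were grouped by the labelled diet. The labels give no batch. A further marker gene is not reported here. Alternatives were DESeq2 1.42.0, limma 3.58.1 with pseudocounts of 1 and 0.1, other normalizations and filters, counts summed by gene or not rounded, no mitochondrial transcripts, the mitochondrial percent as a covariate, a replicate block, the equal-variance test of the study and each animal left out. Robust estimation, and the alternatives run without the filter, were added after the values were seen. Coordinates are those of the deposited tables. Gene, promoter and protein sequences were not used here.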

Additional observations from a re-analysis of the deposited data

Results flagged for a closer look

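In each diet with at least 10 counts of a member, the highest or lowest of the 5 animals was set against the others by Dixon's criterion. Of 63 such groups, 9 (14.3%) held an animal that far from the rest, where 6.91% of the same groups of all transcripts did and chance gives about 1 in 20, and in 5 of them it was HFr 2.

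HFr 2 was the high animal for RRM2 (32.5 CPM, other HFr animals 3.37 to 10.4 CPM), MCM4 (11.8 CPM, others 3.14 to 5.61 CPM) and MKI67 (9.14 CPM, others 1.497 to 3.14 CPM). It was also the high animal for CCNB2 (2.67 CPM, others 0.374 to 0.441 CPM) and BUB1 (2.67 CPM, others 0 to 0.441 CPM). For CCNB2 and BUB1 the HFr group reached 10 counts only through the 12 counts of HFr 2. The entry rule thus already required HFr 2 to be high there. HFr 5 was low for NCAPD3, at 34.2 CPM against 41.2 to 43.7 CPM.

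Among the chow animals, chow 5 was high for MCM2 (1.37 CPM, others 0.454 to 0.653 CPM) and for RRM1 (15.5 CPM, others 9.35 to 10.6 CPM). For MCM2, chow 5 had 3 counts, the same as chow 2 and chow 3, while chow 1 had 2 and chow 4 had 1. It was higher than chow 2 and chow 3 only through its scaled library size, 2190972 against 4596820 and 5489628. Without the counts of chow 5, or of chow 2 or chow 3, the chow group would not have met the entry rule for MCM2. Chow 3 was high for RRM2, at 4.01 CPM against 0.502 to 1.37 CPM.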

How the results depend on the processing

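The 341 transcripts with an unadjusted p under 0.05 became 124 with library size only and 756 with no filter, and 261 to 408 with 1 animal left out. The 3 members of the filtered fit became 5 without mitochondrial transcripts and 13 with no filter, and 2 to 7 with 1 animal left out. The 13 members of the fit without the filter were 9 to 15 under the settings that kept all animals, and 7 to 15 with 1 animal left out, the 7 being without HFr 2. All were higher except RB1, which was lower in these counts with limma at either pseudocount or without chow 1, and in the filtered fit with limma at a pseudocount of 0.1 or without HFr 2, HFr 5, chow 1 or chow 3. The 5 other cell cycle genes became 2 with library size only, 3 with limma and a pseudocount of 0.1, 2 with at least 10 counts in every animal and 15 with no filter. They were 1 to 6 with 1 animal left out. The cause of these shifts was not tested.

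The replicate numbers did not pair the animals: same-numbered animals of the 2 diets had correlations of -0.29 to 0.10 and none correlated best with its own number. With the replicate block the counts were 271 transcripts, 3 members, 12 members without the filter and 2 other cell cycle genes.

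Members passed the adjusted threshold under a few alternatives. RRM2 had an adjusted p of 0.0291 with DESeq2 in the filtered fit, and without the filter 0.0387 with DESeq2, 7.50e-06 with library size only, 9.46e-05 with the block and 0.0181 without chow 3. FOXM1 had 0.0337 with DESeq2 and 0.00724 with the block, and KIFC1 had 0.0430 with library size only. The direction of the 14 members with an unadjusted p under 0.05 in either fit was higher on the HFr diet under every alternative. The alternatives reuse the counts by which these 14 were picked, so the kept direction is no separate evidence. FOXM1, KIFC1, TYMS and MCM5 kept an unadjusted p under 0.05 under every alternative run. BUB1 kept it in the 21 alternatives counted for it. These leave out the equal-variance test, which gave no finite fold change for BUB1 with 0 counts on chow. Its p from that test was not counted, so the 21 do not show that BUB1 kept the threshold there. The BUB1 levels were 0.782 ± 1.07 CPM (SD, n = 5) on the HFr diet and 0 on chow. RRM2, CCND1, MKI67, TOP2A and E2F1 lost it with the equal-variance test of the study, NCAPD3 in 9 of 24 alternatives, CDKN2C in 7 of 22 and E2F1 in 9 of 22. MKI67, TOP2A, NUF2, TACC3 and, in the filtered fit, CCND1 lost it without HFr 2. With 1 animal left out of the fit without the filter, the log2 fold change of 11 members changed sign, none of them among the 13: MCM4, MCM7, PRIM1, RRM1, CCND3, CCNE2, CDK2, CDKN1A, CDKN1B, CCNA2 and AURKA. CDKN1A (0.23) was -0.31 without HFr 5, MCM4 (0.33) was -0.10 and CCNA2 (0.10) -0.01 without HFr 2, and PRIM1 (-0.14) was 0.04 without chow 1. In the filtered fit, MCM7 (0.007) was -0.017 with limma at a pseudocount of 1, -0.018 at 0.1, -0.009 with the block, and -0.172 to 0.114 with 1 animal left out, below 0 without HFr 2, HFr 3, HFr 4, chow 2, chow 3 or chow 5. RRM1 (-0.075) was -0.227 to 0.102 with 1 animal left out, above 0 without HFr 5 (0.102) or chow 5 (0.05). CDKN1B (-0.094) was -0.211 to 0.046, above 0 only without HFr 4.

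Most members had few counts per animal, so 1 animal can carry much of a difference, and the 6 members under 10 counts in total cannot show one at this depth.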
